A study of Homo sapiens with 4 samples.

Results

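The long arm of chromosome 20 was mapped for H3K9me2, a repressive histone mark in which lysine 9 of histone H3 carries a pair of methyl groups, in K562 cells, an established human myeloid leukemia line. The arm was chosen by its covered length in these same 4 libraries, which was far lower in both CUX1 libraries, so its coverage is given as a description and no test was run on this contrast. Its members are all listed broad peaks on chromosome 20 that start at 29500001 or later on hg19, and they numbered 9140 of the 1000000 peaks in the 4 lists. The comparator is the short arm, with all peaks that end at 26300000 or earlier, which held 4535. The 2 gCUX1 libraries came from cells given a CRISPR guide against CUX1, a homeodomain transcription factor gene, and are labelled knock-out; CUX1 itself was not measured in these libraries. The 2 gHPRT libraries came from cells given a guide against HPRT, a gene used as the control target. Libraries are numbered as replicates in the labels, but nothing states that separate cultures were used or whether the edited cells were clones or pools. All 4 libraries were made by CUT&RUN, in which an antibody against the mark tethers a nuclease that releases the marked DNA for sequencing.

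H3K9me2 is laid down mainly by the enzymes G9a and GLP (EHMT2 and EHMT1) and covers broad stretches of mostly silent, late-replicating chromatin, many of them near the nuclear lamina. Broad peak lists show such stretches as chains of peaks, so covered length, peak width and the spacing of peaks describe a domain together. The long arm of chromosome 20 is known in blood disease because part of it is deleted in some myeloid neoplasms. It carries ASXL1, which encodes a chromatin regulator, MYBL2, which encodes a cell cycle transcription factor, and L3MBTL1, an imprinted gene for a chromatin-binding protein.

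Every list held 250000 peaks; read depth is unknown. The weakest listed peak had a −log10 p of 1.49 in gCUX1 replicate 1 and 1.35 in gCUX1 replicate 2, against 1.25 and 1.27 in gHPRT replicates 1 and 2. The caller's smallest peak was 263 and 339 bp wide in gCUX1, against 362 and 369 bp in gHPRT. gCUX1 replicate 1 stood apart with narrow peaks across chromosomes 1 to 22 and X, with a median width of 1324 bp against 1900 bp in gCUX1 replicate 2 and 2335 and 2275 bp in gHPRT. The part of these differences in the values of the long arm was not tested as a cause; the long-arm values were read again with common limits on p or q and at equal covered length. The names of the peaks carry the tag cux1kd in both gCUX1 libraries, and a further tag that begins with sub in gHPRT replicate 1, neither of which the labels explain.

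In the whole lists, peaks were fewer, narrower and farther apart on the long arm in both gCUX1 libraries; the lower coverage and the lower width held under common limits as well, whereas the difference in number did not, and that in spacing held at equal covered length alone. They covered 6.50% and 7.15% of the long arm in gCUX1 replicates 1 and 2, and 23.8% and 24.01% in gHPRT replicates 1 and 2, or 6.82% ± 0.454 in gCUX1 and 23.9% ± 0.162 in gHPRT (SD, n = 2 each). The groups did not overlap, and the gCUX1 mean was lower by 17.1 percentage points, a difference of the kind the arm was chosen by. Lack of overlap was not particular to this arm, since the groups also lay apart on most of 42 chromosome arms. Over chromosomes 1 to 22 and X, coverage was 13.9% and 19.3% in gCUX1 and 22.8% and 22.4% in gHPRT. The short arm was covered over 6.87% and 5.90% in gCUX1, and 7.67% and 6.35% in gHPRT, where the groups overlapped. From peak lists alone, less H3K9me2 on each copy of the arm and fewer copies of the arm in the cells cannot be told apart.

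**Figure D1:**
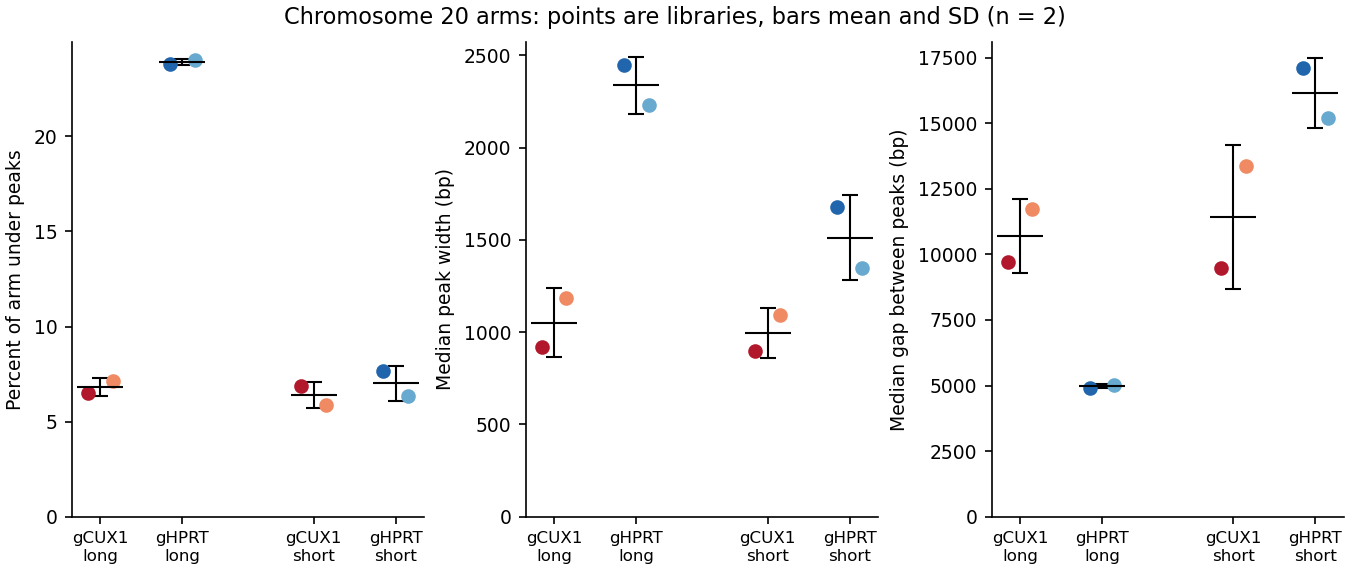
Percent of each chromosome 20 arm under H3K9me2 peaks, median peak width in bp and median gap between neighbouring peaks in bp, with gCUX1 left of gHPRT for the long and then the short arm. Points are libraries and bars are the mean and SD (n = 2 each); the gHPRT long arm stands apart in all 3 panels, with 23.9% covered against 6.82% in gCUX1.

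Set against the coverage of chromosomes 1 to 22 and X in the same library, the long arm had 0.466 and 0.371 times that level in gCUX1 and 1.04 and 1.07 times in gHPRT. In gHPRT cells the long arm was thus covered about as densely as the genome as a whole. The short arm had 0.493 and 0.306 times that level in gCUX1 and 0.336 and 0.284 times in gHPRT. Among 42 chromosome arms of at least 5 Mb ordered from the most to the least covered, the long arm of chromosome 20 took rank 38 and 35 in gCUX1 and rank 24 and 25 in gHPRT. The short arm took rank 37 and 36 in gCUX1 and rank 38 and 36 in gHPRT. In the ratio of the gCUX1 to the gHPRT mean, only the long arm of X, at 0.251, was below the 0.286 of 20q among these 42 arms.

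The difference between the groups began at the centromere. No peak of any library lay between the last short-arm peaks, which ended between 26180741 and 26183928, and the first long-arm peaks, which started between 29519749 and 29524633. These are the members and comparators nearest to the limits of the choice, and 0 peaks crossed or lay between those limits. The position that best split the 500-kb windows of chromosome 20 into 2 segments by the difference between groups was 30000001, with mean differences of -0.76 points to the left and -17.2 points to the right. In 100-kb windows the right segment began at 29800001, after 2 windows in which no library had a peak. The last 2 windows that lay in the short arm in full ran from 25000001 to 26000000. The second of them overlaps the centromeric band 20p11.1, which starts at 25600001. They had 4.38% and 5.02%, then 4.53% and 3.58%, in gCUX1, against 4.06% and 1.36%, then 1.70% and 2.40%, in gHPRT. The window from 26000001 to 26500000, which ends inside the centromere, had 1.18% and 1.69% in gCUX1 and 3.05% and 2.69% in gHPRT. Both gCUX1 libraries thus already lay below both controls in that sparse window. No window between it and the long arm held a peak. The first window of the long arm, from 29500001 to 30000000, had 6.70% and 5.30% in gCUX1 and 13.0% and 15.5% in gHPRT. The next, from 30000001 to 30500000, had 8.37% and 12.5% in gCUX1 and 26.0% and 27.0% in gHPRT. The groups thus lay apart from the first window after the centromere onward. The difference in means was -8.27 points in the first window and -16.1 points in the second. The ratios of means, 0.420 and 0.394, were nearly alike. A stretch of 306526 bp in the first window held no peak in any library.

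**Figure D2:**
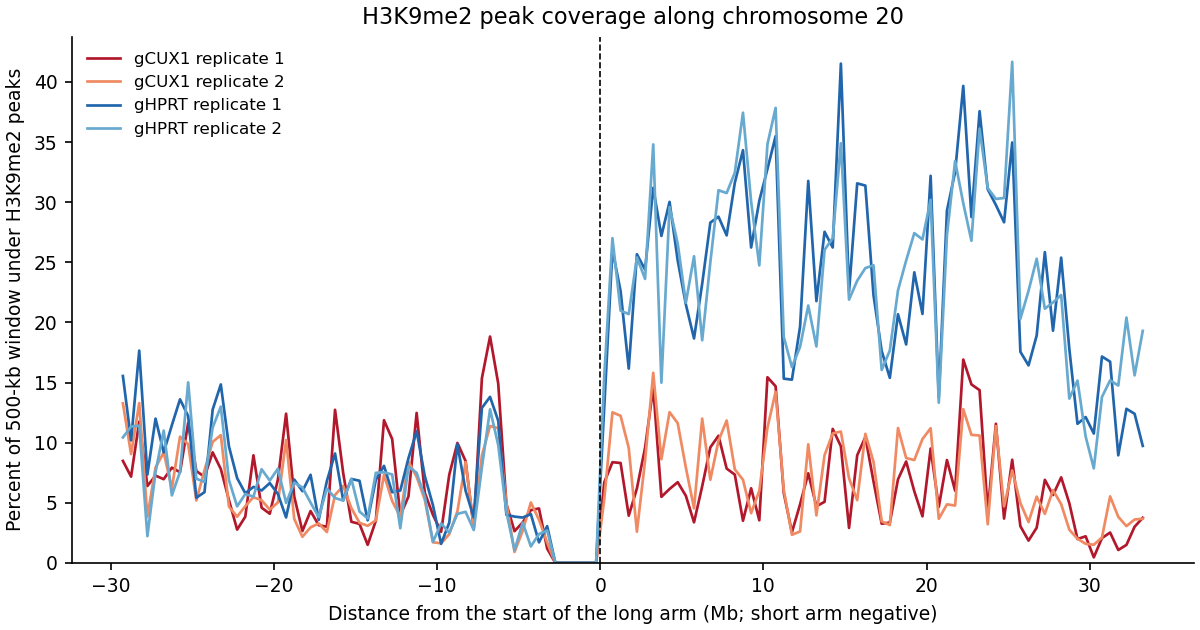
Percent of each 500-kb window of chromosome 20 under H3K9me2 peaks, drawn against the distance in Mb from the start of the long arm, with short-arm windows at negative distances and 1 line per library. Of the 52 short-arm windows left of the dashed line, both gCUX1 lines lie below both gHPRT lines in 19 and above both in 7. Right of it both gCUX1 lines lie below both gHPRT lines in all 67 windows.

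The lower coverage then ran to the end of the arm. Both gCUX1 libraries lay below both gHPRT libraries in all 67 windows of 500 kb on the long arm, where 57.1% of 5608 such windows on chromosomes 1 to 22 and X did (windows with a mean of at least 1%). The gCUX1 mean was at most 0.5 of the gHPRT mean in all 67 as well, against 6.83% of all windows. That share depended on the lists' limits: it was 30 of 67 windows with 1 limit on −log10 p for all lists, against 1.26% of all windows, 33 of 66 with 1 limit on −log10 q, against 1.33%, and 52 of 67 at equal covered length, against 2.56%. Since the arm was chosen by this contrast, these counts describe its extent and are no evidence of it. The last window, from 62500001 to 63000000, had 3.74% and 3.67% in gCUX1 and 9.73% and 19.3% in gHPRT. The last peaks of the arm ended between 62887086 and 62887644 in the 4 libraries, so coverage ended at nearly the same base in all of them.

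Across these 67 windows coverage had a median of 6.004% and 6.91% in gCUX1 replicates 1 and 2 and of 24.4% and 24.5% in gHPRT replicates 1 and 2. The lowest and highest windows were 0.456% and 16.9% in gCUX1 replicate 1, 1.51% and 15.8% in gCUX1 replicate 2, 8.94% and 41.5% in gHPRT replicate 1, and 7.86% and 41.7% in gHPRT replicate 2. The ratio of the gCUX1 to the gHPRT mean ranged from 0.105 to 0.471 with a median of 0.262. On the short arm it ranged from 0.393 to 2.58 over 52 windows, with a median of 0.864. There both gCUX1 libraries lay below both gHPRT libraries in 19 windows and above both in 7, where 2.30% of all windows lay above. No window of the long arm lay above.

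The largest absolute differences lay in windows that were dense in gHPRT. In the window from 38000001 to 38500000, peaks covered 3.501% and 6.91% in gCUX1 and 34.3% and 37.4% in gHPRT. From 54500001 to 55000000 they covered 8.58% and 7.68% in gCUX1 and 35.0% and 41.7% in gHPRT. The difference in means was -30.7 and -30.2 points in these windows. The lowest ratio, 0.105, was in the sparse window from 59500001 to 60000000, with 0.456% and 1.51% in gCUX1 and 10.8% and 7.86% in gHPRT. The highest ratios were 0.471 from 30500001 to 31000000, 0.461 from 32500001 to 33000000 and 0.459 from 52000001 to 52500000. In the whole lists no 500-kb window of the long arm had overlapping groups, whereas 15 of 67 did with the limit on p and 25 of 66 with the limit on q. Of all windows, 57.1% lay below and 2.30% above both controls in the whole lists. These shares were 3.91% and 52.0% with the limit on p, and 1.71% and 34.9% with the limit on q. In the rest of all windows the groups overlapped, which was a larger share than on the long arm in each reading.

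At 100 kb the pattern was nearly as even. Of 335 windows on the long arm, 332 had a mean of at least 1%, and in 320 of these both gCUX1 libraries lay below both gHPRT libraries, against 43.3% of all 27552 windows kept. In 300 the gCUX1 mean was also at most 0.5 of the gHPRT mean, against 12.5% of all windows. This was so in 113 of 329 windows with the limit on p, against 2.03% of all, 115 of 314 with the limit on q, against 2.01%, and 196 of 330 at equal length, against 4.47%. None of the windows of the whole lists lay above both controls, against 4.98% of all windows, and the gCUX1 mean was below the gHPRT mean in all 332, by between 2.32 and 41.6 points. The longest unbroken run of windows with both gCUX1 libraries below ran from 52200001 to 58300000 and held 61 windows. The next ran from 40800001 to 45900000 with 51 windows, and from 35900001 to 40700000 with 48. Of 257 short-arm windows 55 lay below and 34 above.

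The 12 windows of 100 kb with overlapping groups were scattered as single windows along the arm, the first at 31000001 and the last at 62000001, with no 2 next to each other. They were not windows of full gHPRT-like coverage in both gCUX1 libraries. In 9 of the 12 it was gCUX1 replicate 2 alone that reached the range of the controls, in 2 it was gCUX1 replicate 1 alone, and in 1 it was both. At 45900001, where the ratio of means was highest at 0.824, peaks covered 2.25% and 21.9% in gCUX1 and 15.8% and 13.5% in gHPRT, so the value rested on gCUX1 replicate 2.

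Among the 314 windows of 100 kb with a gHPRT mean of at least 10%, 289 had a ratio of at most 0.5 and 2 had a ratio of at least 0.75, against 11.5% and 45.3% of the 21985 windows of the genome with that level. On the short arm 58 windows had that level, 15 with a ratio of at most 0.5 and 21 with one of at least 0.75. One of the 2 long-arm windows was the window at 45900001. The other, from 48100001 to 48200000, had 12.5% and 10.3% in gCUX1 and 14.1% and 15.8% in gHPRT. Its ratio of 0.762 did not rest on 1 gCUX1 library alone. From 39600001 to 39700000 peaks covered 20.8% and 21.7% in gCUX1 and 31.2% and 25.7% in gHPRT, and from 51900001 to 52000000 they covered 27.6% and 19.7% in gCUX1 and 34.6% and 31.2% in gHPRT. In these windows, too, both gCUX1 libraries lay below both controls.

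In the 8 windows of 100 kb with the largest differences the gCUX1 mean was at most 8.30%. The largest was at 44100001, where peaks covered 5.91% and 6.46% in gCUX1 and 54.8% and 40.8% in gHPRT. At 42400001 they covered 1.48% and 0.537% in gCUX1 and 52.4% and 19.4% in gHPRT, so the controls themselves differed there. At 38100001, the start of 3 neighbouring windows among the 8 with the largest differences, they covered 2.52% and 1.49% in gCUX1 and 48.3% and 32.8% in gHPRT. At 54500001 they covered 6.34% and 1.156% in gCUX1 and 36.9% and 39.4% in gHPRT. In short-arm windows the largest difference downwards was -12.5 points, at 6300001, and the largest upwards was 12.8 points, at 10400001, where peaks covered 14.3% and 14.6% in gCUX1 and 2.15% and 1.08% in gHPRT.

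Cytogenetic bands gave the same arm in 11 named pieces, and in each of the 11 both gCUX1 libraries lay below both gHPRT libraries. The share over all bands of the genome was not computed, so this count does not set the arm apart. By the same rule 57.1% of all 500-kb windows on chromosomes 1 to 22 and X lay below. The genes named here are background on what each band holds; the values are of whole bands and not of genes, which were not placed on hg19. In 20q11.21, the band of ASXL1 and of the DNA methyltransferase gene DNMT3B, peaks covered 6.49% and 8.40% in gCUX1 and 21.0% and 21.99% in gHPRT. In 20q11.22, the band of the cell cycle transcription factor gene E2F1, they covered 9.02% and 11.7% in gCUX1 and 27.6% and 26.0% in gHPRT, and the ratio of means, 0.387, was the highest of the arm. In 20q12, the band of PTPRT, a receptor phosphatase gene, coverage was 7.20% and 6.95% in gCUX1 and 27.0% and 28.2% in gHPRT. The G-dark band 20q13.2, with SALL4, a stem cell zinc finger gene, was the densest band of the arm in both controls, with 9.41% and 7.71% in gCUX1 and 30.9% and 30.0% in gHPRT.

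The ratio of the gCUX1 to the gHPRT mean was lowest in the bands nearest the telomere. In 20q13.12, the band of MYBL2 and L3MBTL1, peaks covered 7.58% and 8.27% in gCUX1 and 28.7% and 24.7% in gHPRT, a ratio of means of 0.297. In 20q13.31, the band of the growth factor gene BMP7, they covered 2.61% and 4.63% in gCUX1 and 17.6% and 22.7% in gHPRT, a ratio of 0.179. In 20q13.32, the band of the imprinted signalling gene GNAS, the ratio was 0.254. In 20q13.33, the last band, they covered 2.20% and 2.96% in gCUX1 and 12.8% and 14.7% in gHPRT, a ratio of 0.188. Over the 67 windows of 500 kb the ratio went down with position (Pearson r -0.46, Spearman rho -0.45), a description only, since neighbouring windows share libraries and the gHPRT level also went down with position (r -0.31). The ratio was alike in bands that stain dark and light with Giemsa, 0.290 and 0.278. In the short-arm bands it was 0.845 in 20p13, 0.769 in 20p12.3 and above 1 in 20p11.23, 20p11.22 and 20p11.21.

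**Figure D3:**
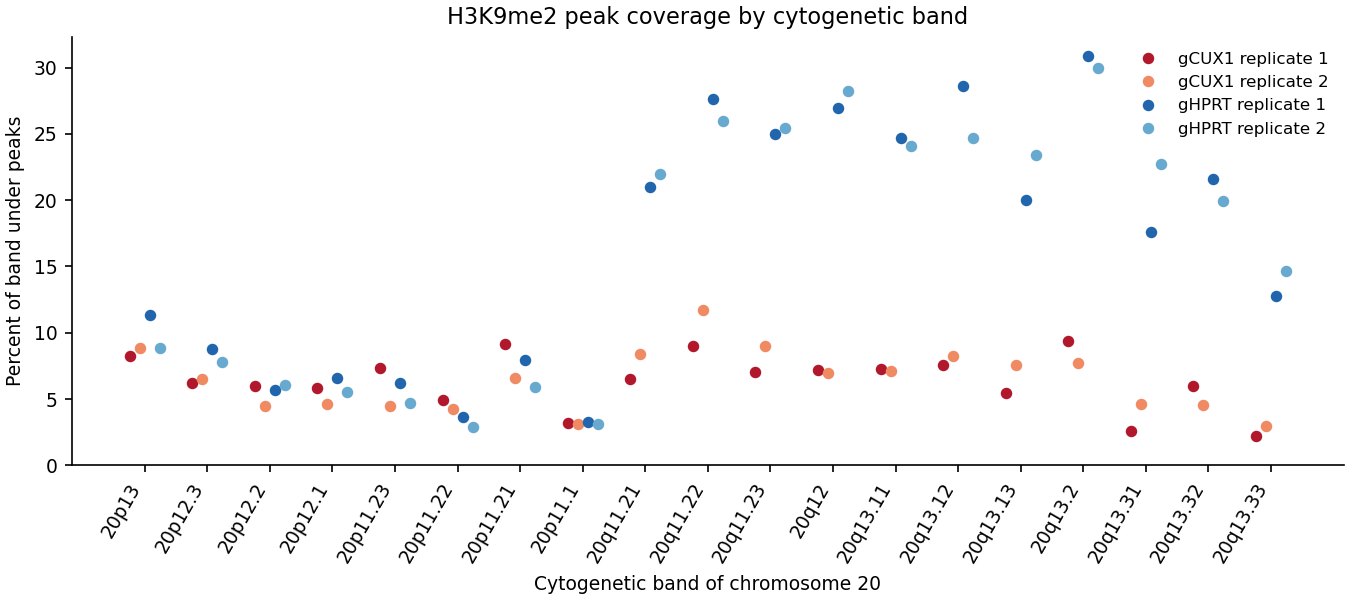
Percent of each cytogenetic band of chromosome 20 under H3K9me2 peaks, from the short-arm end to the long-arm end, with 1 point per library. From 20q11.21 onward both gHPRT points stand above both gCUX1 points in each of the 11 bands, whereas in 20p11.1 all 4 points lie between 3.11% and 3.25%.

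The long arm held 1810 and 1534 peaks in gCUX1 and 2765 and 3031 in gHPRT in the whole lists. With 1 limit on −log10 p it held 1810 and 864 in gCUX1 and 1194 and 1416 in gHPRT, with 1 limit on −log10 q 866 and 721 in gCUX1 and 565 and 1380 in gHPRT, and at equal covered length 1810 and 1079 in gCUX1 and 1717 and 1865 in gHPRT. The groups overlapped in number under all 3 of these readings. Its median peak width in the whole lists was 919.5 and 1185 bp in gCUX1 and 2447 and 2229 bp in gHPRT, or 1052 ± 188 bp in gCUX1 and 2338 ± 154 bp in gHPRT (SD, n = 2 each). In units of the caller's smallest width in the same list, the medians were 3.496 and 3.496 in gCUX1 and 6.76 and 6.04 in gHPRT. At the wide end, 90% of peaks were narrower than 2377 and 3216 bp in gCUX1 and 5638 and 5219 bp in gHPRT. Peaks of at least 5 kb numbered 14 and 35 in gCUX1 and 393 and 344 in gHPRT, and held 3.75% and 8.86% of the covered bases in gCUX1 and 33.8% and 28.5% in gHPRT. The wide peaks differed between groups more than the count of peaks did, and stayed apart with the limit on p, at 14 and 21 in gCUX1 and 118 and 136 in gHPRT, and with the limit on q, at 10 and 21 in gCUX1 and 57 and 159 in gHPRT. Median width under the limit on p was 919.5 and 1184 bp in gCUX1 and 2287 and 2145 bp in gHPRT. In each of the 11 bands the median width was lower in both gCUX1 libraries, with band medians of 654 to 1127 bp and 884 to 1378 bp in gCUX1 replicates 1 and 2 and of 1966 to 2693 bp and 1985 to 2689 bp in gHPRT replicates 1 and 2. It was also lower in both in the short-arm bands 20p13, 20p12.3, 20p12.2, 20p12.1 and 20p11.23. In 20p11.22, 20p11.21 and 20p11.1 the groups overlapped in width. Lower width was not particular to the long arm, since the median was lower in both gCUX1 libraries on each of the 42 chromosome arms. On 1p, for example, it was 1469 and 2210 bp in gCUX1 and 2493 and 2495 bp in gHPRT.

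The same measures lay nearer to each other on the short arm. Its number of peaks was 1497 and 1105 in gCUX1 and 947 and 986 in gHPRT, which is the other direction from the long arm. Median width was 899 and 1093 bp in gCUX1 and 1676 and 1350 bp in gHPRT, so it was lower in both gCUX1 libraries here too. Peaks of at least 5 kb numbered 12 and 17 in gCUX1 and 58 and 31 in gHPRT. They held 4.21% and 6.71% of the covered bases in gCUX1 and 18.8% and 11.1% in gHPRT. Fewer wide peaks in gCUX1 were thus not particular to the long arm in the whole lists. With the limit on p they numbered 12 and 12 in gCUX1 and 6 and 10 in gHPRT. Within gCUX1 the long arm's median width was 1.02 and 1.08 times that of the short arm, and within gHPRT it was 1.46 and 1.65 times. Peaks of the 2 arms were thus nearly alike in width in gCUX1 and unlike in gHPRT.

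Long-arm peaks of the whole lists also lay farther apart in gCUX1. The median gap from the end of a long-arm peak to the start of the next was 9718 and 11711 bp in gCUX1 and 4926 and 5030.5 bp in gHPRT. The mean of these gaps was 115% wider in gCUX1 in the whole lists, 44.0% wider at equal covered length, 4.93% wider with the limit on p, and differed by -2.86% with the limit on q. In the whole lists the widest 10% of gaps began at 39646 and 47735 bp in gCUX1 and at 21274 and 18368 bp in gHPRT. Gaps of at least 100 kb numbered 22 and 31 in gCUX1 and 2 and 3 in gHPRT, and with the limit on p 22 and 70 in gCUX1 and 37 and 22 in gHPRT. The longest gap on the arm was 325747 and 326784 bp in gCUX1 and 313372 and 312822 bp in gHPRT. A stretch from 29546555 to 29853080 next to the centromere held no peak in any library. The short-arm median gap was 9470 and 13359 bp in gCUX1 and 17087 and 15214 bp in gHPRT. The gap on the long arm over that on the short arm was thus 1.03 and 0.877 in gCUX1 and 0.288 and 0.331 in gHPRT.

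In the whole lists, peaks had nearly the same strength on both arms in gCUX1 and were stronger on the long arm in gHPRT. The median −log10 p, as the authors' caller gave it, was 1.678 on the long arm and 1.677 on the short arm in gCUX1 replicate 1, and 1.516 and 1.513 in gCUX1 replicate 2. In gHPRT replicate 1 it was 1.451 on the long and 1.388 on the short arm, and in gHPRT replicate 2 it was 1.467 and 1.414. This pattern did not hold under common limits: with the limit on p, gCUX1 replicate 2 had 1.674 on the long and 1.624 on the short arm, and gHPRT replicate 1 had 1.649 and 1.629. With the limit on q it was 1.806 on the long and 1.823 on the short arm in gHPRT replicate 1, and 1.670 and 1.675 in gHPRT replicate 2. Of the 10000 strongest peaks of each list, 71 and 75 lay on the long arm in gCUX1 and 125 and 136 in gHPRT. Of all 250000 peaks, 0.724% and 0.614% lay there in gCUX1 and 1.11% and 1.21% in gHPRT, where the arm makes up 1.10% of chromosomes 1 to 22 and X. The share was thus lower in gCUX1 for an equal number of each list's strongest peaks; the weakest of the 10000 strongest had a −log10 p of 2.23 and 2.21 in gCUX1 and 2.03 and 2.13 in gHPRT, so this is no comparison at 1 strength. Few were strong by the caller's own measure, with 0 and 4 long-arm peaks at a q of 0.05 in gCUX1 and 1 and 6 in gHPRT. The short arm held 0 such peaks in each of the 4 libraries. Their share over the whole lists was not computed, so these counts do not set the arm apart.

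**Figure D4:**
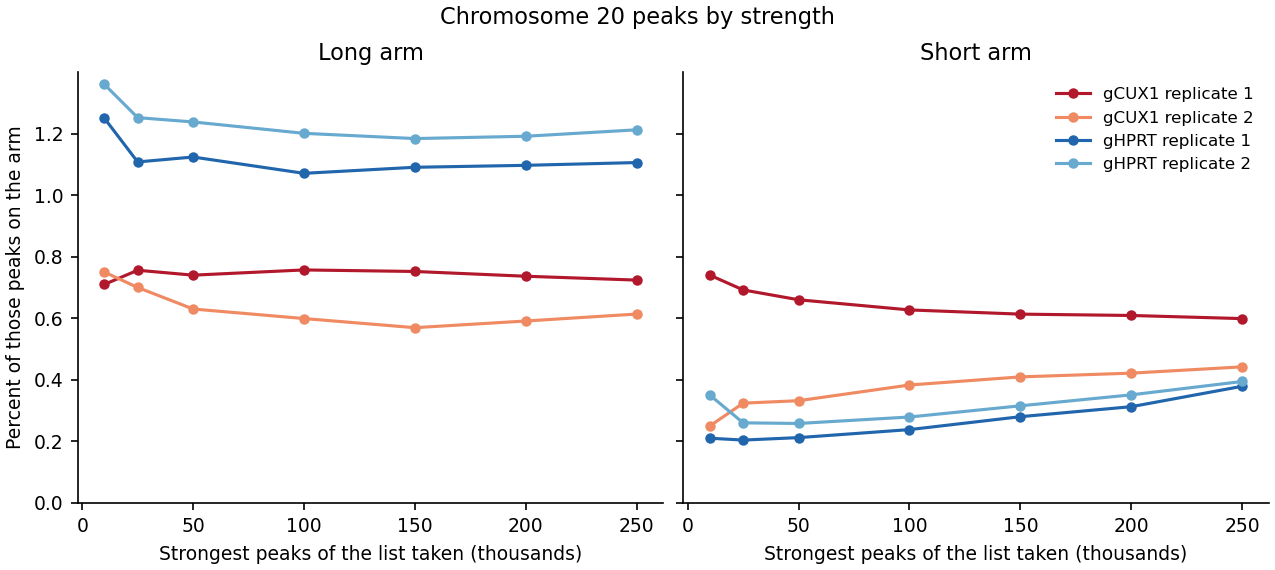
Percent of the strongest peaks of each list that lie on the long arm (left) and the short arm (right) of chromosome 20, against how many of the strongest peaks are taken, with 1 line per library. On the long arm the gCUX1 lines stay between 0.569% and 0.757% and the gHPRT lines between 1.07% and 1.36% at each list length drawn.

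Peak names end in a serial number that increases along the chromosome. If these serials count every peak the caller made, which no source at hand states, the lists held 59.1% and 59.0% of the peaks called on the long arm in gCUX1 and 52.8% and 60.6% in gHPRT. For the short arm they held 58.4% and 56.1% in gCUX1 and 27.6% and 41.7% in gHPRT. On that reading, the listed share was lower on the short arm than on the long arm in gHPRT and nearly equal on both in gCUX1.

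The ratio of the arms within a library sets 2 regions of 1 list against each other. In the whole lists, long-arm coverage divided by short-arm coverage was 0.947 and 1.21 in gCUX1 and 3.10 and 3.78 in gHPRT. The lists were also read with 1 limit on −log10 p (1.49, the highest of the lists' own limits), with 1 limit on −log10 q (0.0335, the median of all peaks), cut to equal covered length, and with gaps of up to 2000 bp filled. Over these 5 readings the ratio lay between 0.917 and 1.26 in gCUX1 and between 3.10 and 6.13 in gHPRT. The groups did not overlap in any reading. Since the long arm was chosen by its coverage in these same lists, this describes the contrast and is no evidence of it.

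**Figure D5:**
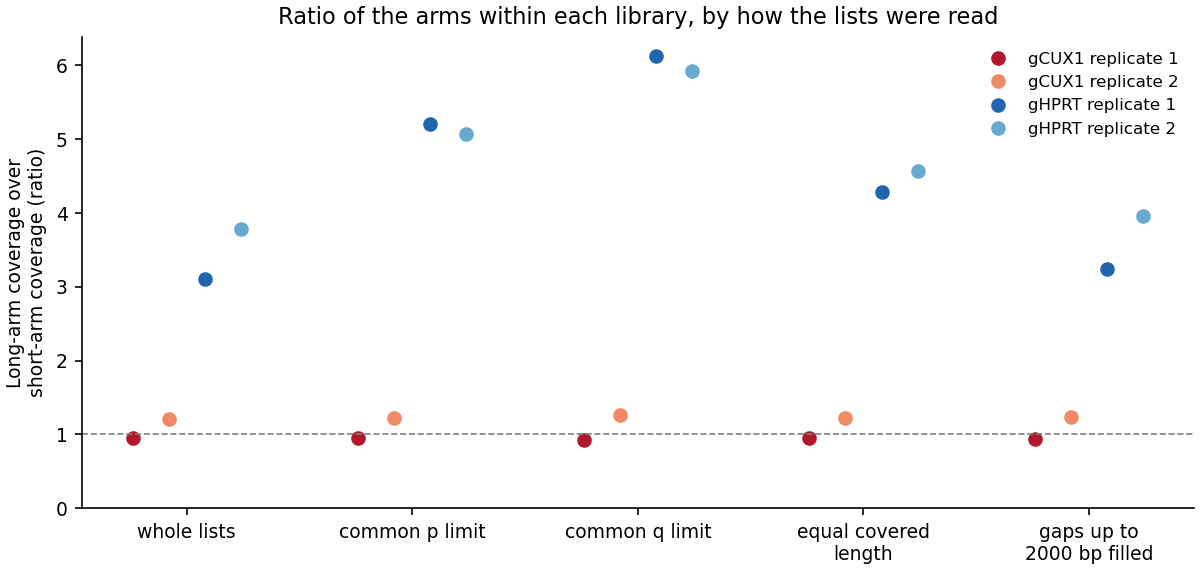
Ratio of long-arm to short-arm coverage within each library (vertical axis, no unit) under 5 ways of reading the lists, with the dashed line at equal coverage of both arms. The gCUX1 points lie between 0.917 and 1.26 and the gHPRT points between 3.10 and 6.13.

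How far the arms themselves differed between groups depended on the limit. With 1 limit on −log10 p the long arm was covered 6.50% and 4.09% in gCUX1 and 9.33% and 10.8% in gHPRT, and the short arm 6.87% and 3.33% in gCUX1 and 1.79% and 2.14% in gHPRT. Coverage of the short arm was then higher in both gCUX1 libraries, and that of the long arm lower. In 52 of 67 windows of 500 kb on the long arm both gCUX1 libraries still lay below both gHPRT libraries, against 3.91% of all windows. With 1 limit on −log10 q this held in 41 of 66 windows, against 1.71% of all, and at equal covered length in 66 of 67, against 21.5% of all. At 100 kb it held in 142 of 329 windows with the limit on p, against 6.46% of all, and in 124 of 314 with the limit on q, against 3.22% of all. The limit on q left long-arm coverage of 3.05% and 3.54% in gCUX1 and 4.52% and 11.4% in gHPRT. The spread of the controls was then wider than the gap between gHPRT replicate 1 and gCUX1. Under none of these 3 readings did a 500-kb window of the long arm lie above both controls. Of the short-arm windows 36 of 52 did so with the limit on p, against 52.0% of all windows, 24 of 38 with the limit on q, against 34.9% of all, and 21 of 52 at equal length, against 24.9% of all. At 100 kb both gCUX1 libraries lay above both controls in 6 of 329 long-arm windows with the limit on p, against 35.7% of all, in 2 of 314 with the limit on q, against 32.6%, and in 2 of 330 at equal length, against 21.0%. At equal length they lay below in 235 of 330, against 17.7% of all.

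Long-arm peaks of the gCUX1 libraries lay partly where the controls had peaks. Of the bases covered in gCUX1, 58.7% and 65.3% were also under a peak of at least 1 gHPRT library, whose peaks together covered 39.8% of the arm. Along the 67 windows of 500 kb the gCUX1 mean followed the gHPRT mean (Pearson r 0.72, Spearman rho 0.72). The gCUX1 libraries followed each other (r 0.74), and the gHPRT libraries did so too (r 0.83). These correlations are descriptions over windows of 1 chromosome arm that share libraries and mappability. Both controls and neither gCUX1 library covered 1.87 Mb of the long arm, and both gCUX1 libraries and neither control covered 0.0726 Mb. These lengths depend on how much each library covered, by which the arm was chosen. Their size by placement alone was not computed, so they do not show which sequence differed. Over the short arm these lengths were 0.180 and 0.130 Mb.

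All 4 libraries covered 0.1002 Mb of the long arm, in 154 stretches with a median of 491.5 bp. The longest ran from 51537078 to 51539852, and another from 62884988 to 62887086 lay at the very end of the covered arm. The strongest long-arm peak of both controls was 1 and the same site, chr20:36322033-36323326 in gHPRT replicate 1, with a −log10 p of 7.08 and 7.95 and a deposited fold of 3.62 and 3.67 in gHPRT. It was present in both gCUX1 libraries with a −log10 p of 3.48 and 3.42 and a fold of 2.98 and 2.61, where it took rank 2 of 1810 and rank 12 of 1534 among long-arm peaks. The widest long-arm peaks were 7656 and 9647 bp in gCUX1 and 17163 and 16798 bp in gHPRT. The widest of gHPRT replicate 1, from 48802674 to 48819836, was covered over 16.5% and 11.1% of its length in gCUX1 and over 49.6% in gHPRT replicate 2. The widest of gHPRT replicate 2, from 29937998 to 29954795, was covered over 32.9% and 31.3% in gCUX1 and over 14.2% in gHPRT replicate 1, so the extent of single wide peaks was not shared even between the controls.

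The leading peaks of the gCUX1 libraries were less alike. The strongest long-arm peak of gCUX1 replicate 1, from 36909207 to 36909850, had a −log10 p of 3.51 and lay under peaks of both controls in full, but over 47.8% of its length in gCUX1 replicate 2. The strongest of gCUX1 replicate 2, from 34040141 to 34043570, had a −log10 p of 5.37, and 13.2% of it was covered in gCUX1 replicate 1, against 68.0% and 54.7% in gHPRT. The widest of gCUX1 replicate 1, from 45293725 to 45301380, was not covered in gCUX1 replicate 2 and was covered over 78.2% and 57.0% in gHPRT. The widest of gCUX1 replicate 2, from 30687679 to 30697325, was covered over 11.0% in gCUX1 replicate 1 and over 22.04% and 16.4% in gHPRT. The controls also covered more of the arm as a whole.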

How the data were processed

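MACS2 2.1.0, BWA 0.7.17, deepTools 3.5.1 and SAMtools 1.16.1 are named, for build hg19, in the submitters' processing notes. The labels and lists give no settings, background library or read depth, so how precise each value is for its depth is unknown. The authors deposited 1 broad peak list per library, with no pooling. Each deposited peak carries a score (a whole number that follows its p), a fold (the ratio of its signal to local background), −log10 p and −log10 q. These are the authors' values, and they only described, ranked or filtered peaks.

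Covered percent, widths and gaps were computed per library with Python 3.11.15 (numpy 2.4.6, pandas 2.3.3), over 33.5 Mb of long arm and 26.3 Mb of short arm. Chromosome lengths and bands came from the hg19 table of circlize 0.4.16. Windows of 500 and 100 kb began at base 1 of each chromosome and were kept at a mean of at least 1% over the 4 libraries. The step was the split with the least summed squares. On simulated chromosomes with a known step it was found within 1 window in 20 of 20 runs. Those runs used coverages like the ones seen here, steps at window edges and no centromere without peaks. They checked the code and do not give the precision on the real chromosome. Windows named are the 8 of 100 kb with the largest differences, the 8 with the highest ratio at a gHPRT mean of at least 10%, and 3 each way on the short arm; peaks named are the widest and strongest of each library. Other windows, bands and stretches were named after their values were seen. The arm, windows and lists were chosen with earlier results of these data known. Gene lists prepared for the arm were not used here, since the annotation at hand was of another build, and no sequence is printed for the same reason. The ranking of 42 arms and the per-strength counts were added after the data were seen. No test was run on this contrast, and 2 libraries against 2 would also be too few to pass a threshold of 0.05 by exact permutation.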

Additional observations from a re-analysis of the deposited data

How the results depend on the processing

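No paired analysis was possible because no result comes from a test, and nothing in the labels shows that equal replicate numbers pair the libraries. In percent change of the gCUX1 mean from the gHPRT mean, long-arm coverage was -71.4, and -47.5 with 1 limit on −log10 p, -58.7 with 1 limit on −log10 q, -60.2 at equal covered length and -60.4 relative to the whole library. The ratio of the arms was -68.6, and -78.8, -81.9 and -75.5 under the first 3 of these. The median gap was 115% wider, and 4.93% and 44.0% wider with the limit on p and at equal length; it turned to -2.86% with the limit on q. The cause was not tested. Median width was -55.0 and moved by less than the spread between libraries in all 8 settings run. Windows with both gCUX1 libraries below numbered 41 of 500 kb with the limit on q, and 142 and 124 of 100 kb with the limits on p and q, against 67 and 320. Their shares over all windows were then 1.71%, 6.46% and 3.22%. A filter of 5%, a shifted grid and scaling to the library changed neither count by over 1.5 times. Leaving out 1 library gave -72.8 to -70.1 for coverage, -72.5 to -64.8 for the ratio, -60.7 to -49.3 for width, 95.2 to 135 for the gap, 67 in each case for 500-kb windows, 322 to 329 for 100-kb windows and 29500001 to 30000001 for the step. With 2 libraries a group and lists cut to 250000 peaks, total mark and small differences were not measurable.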
